A study of Mus musculus with 8 samples.

Results

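Transcript levels in dorsal root ganglia (lumbar levels 4 and 5) of the mouse were compared between 2 genotypes in the absence of nerve injury. Every gene listed with at least 1 FPKM in 2 or more of the 8 libraries of the series entered the comparison, which gave 12884 of the 21878 genes in the table. FPKM is the number of sequenced fragments assigned to a gene, scaled to transcript length and to the fragments of the library. All animals were C57BL/6. WT mice carried loxP-flanked alleles of both Myh9 and Myh10 and no Cre, and dKO mice carried the same floxed alleles together with Advillin-Cre. The ganglia were taken 3 days after a sham operation, and each genotype was represented by 2 libraries (WT sham 1 and 2, dKO sham 1 and 2). The other 4 libraries of the series came from both genotypes 3 days after the sciatic nerve was cut (WT SNI and dKO SNI in the sample names) and serve here for the estimate of spread and for side-by-side values. Nothing in the sample descriptions places the libraries of a group in separate animals, and the p-values rest on the spread between libraries, part or all of which may be technical.

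Non-muscle myosin II is the motor that pulls actin filaments against each other. Each molecule consists of paired heavy chains (Myh9 for myosin IIA, Myh10 for IIB, Myh14 for IIC) with essential and regulatory light chains, and it is switched on when kinases such as myosin light chain kinase phosphorylate the regulatory chain. In axons and growth cones it drives the backward flow of actin and resists extension. Advillin is an actin-binding protein made in sensory neurons, so the Cre acts in those neurons, while satellite glia, Schwann cells, fibroblasts, vessels and immune cells of the ganglion keep their Myh9 and Myh10. The values are levels in bulk tissue, in which fewer cells of a type and less RNA per cell cannot be told apart.

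The libraries differed in more than the genotype. FPKM summed to 278310 to 308666 in the 4 sham libraries, and replicates correlated at a Pearson r of 0.9893 (WT sham) and 0.9848 (dKO sham) over genes, against 0.9737 to 0.9879 between the groups. The read depth behind a value is unknown. Neuronal, glial and Schwann cell markers of the labelled tissue were present in all 4 libraries, with Tubb3, a neuronal tubulin, at 1269 to 1385 FPKM and Fabp7, a satellite glia marker, at 245 to 352 FPKM. WT sham 2 also held skeletal muscle transcripts. The 26 muscle markers summed to 1095 FPKM there, against 94.8 FPKM in WT sham 1 and 53.4 and 103 FPKM in dKO sham. Pvalb made up most of the lower sums, at 67.4 FPKM in WT sham 1 and 47.2 and 86.2 FPKM in dKO sham. In 7 of the 11 muscle markers tested both WT sham libraries exceeded both dKO sham libraries, and in 0 they lay below. Tnnc2 measured 6.07 and 179 FPKM in WT sham against 0.16 and 2.01 FPKM in dKO sham. The 4 Y-linked genes were present in both WT sham libraries and at or near 0 in both dKO sham libraries, and this division was the opposite after axotomy. The sample labels give no sex. A genotype effect and a difference in sex, or in anything else that goes with Y-linked transcripts, therefore cannot be told apart in this comparison. The haemoglobin share of the summed FPKM was 0.473 and 0.461% in WT sham and 0.712 and 1.69% in dKO sham.

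The comparison rested first on the genes that the Cre was built to remove. Myh9 measured 27.2 and 31.6 FPKM in WT sham and 10.9 and 12.1 FPKM in dKO sham. For Myh10 the values were 18.1 and 23.5 FPKM in WT sham, and 12.2 and 14.4 FPKM in dKO sham. For both genes the groups did not overlap, and the gap was wider for Myh9. On the log2(FPKM + 1) scale, on which all differences here are given with their standard error (±), the Myh9 difference was -1.28 ± 0.13 (limma, adjusted p = 0.00435) and the Myh10 difference was -0.60 ± 0.18 (limma, adjusted p = 0.299). The floxed exons are only part of each gene, so whole-gene values do not measure recombination. Without WT sham 2 the adjusted p of Myh9 in limma was 0.051.

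Myh14, whose alleles were not targeted, measured 12.1 and 15.0 FPKM in WT sham and 11.1 and 12.7 FPKM in dKO sham, and the groups overlapped. Avil itself, after which the Cre driver is named, stood at 172 and 180 FPKM in WT sham against 75.3 and 80.0 FPKM in dKO sham (-1.17 ± 0.17, limma, adjusted p = 0.038). Its call was lost whenever any of the 4 sham libraries was left out, at adjusted p values of 0.111 to 0.254 in limma. The Myh9 difference shrank to -0.29 ± 0.13 after axotomy (limma, adjusted p = 0.113), whereas the Myh10 difference was -1.19 ± 0.18 there and passed the test (limma, adjusted p = 0.00929). The test of the difference between the surgeries passed for neither gene, with a limma adjusted p of 0.193 for Myh9 and 0.342 for Myh10.

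**Figure D1:**
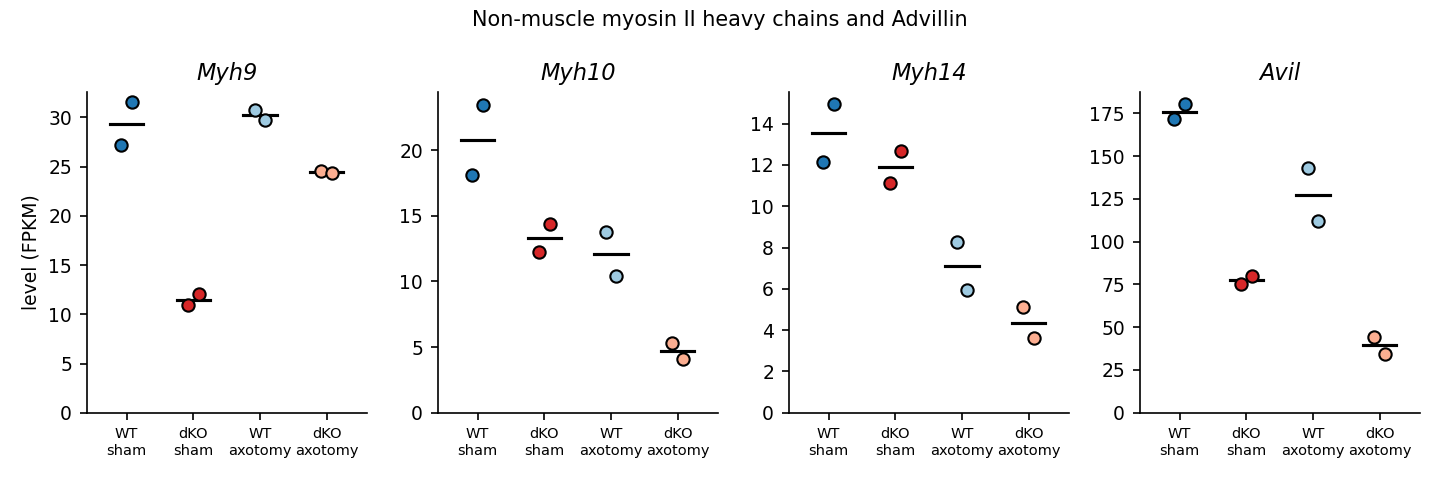
Levels of the 3 non-muscle myosin II heavy chain genes and of Avil in FPKM, with 1 point per library and a bar at each group's mean, on axes that start at 0. Both dKO sham libraries lie below both WT sham libraries for Myh9, Myh10 and Avil, and overlap with them for Myh14.

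Over all genes, 20 passed a Benjamini-Hochberg adjusted p of 0.05 in limma, 12 higher in dKO sham (0.0931% of genes tested) and 8 lower (0.0621%). A larger set differed without passing. Both dKO sham libraries lay above both WT sham libraries in 27.8% of genes and below both in 18.3%, and 1046 genes were higher and 351 lower at an unadjusted p under 0.05. The counts of list members apart upward or downward given below are to be set against these shares of 27.8 and 18.3%. The median difference over all genes was 0.04, with quartiles at -0.11 and 0.19. The higher genes were mostly genes of the extracellular matrix: Col3a1, Col1a1, Col5a2, Eln, Mfap4, Lox and Nid1. The lower genes were Myh9, Avil, Cyp4f39, Hal and the Y-linked Eif2s3y, Ddx3y, Uty and Kdm5d.

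The counts moved with the libraries used and with the scaling. Without WT sham 1 there were 9 higher and 22 lower genes, without WT sham 2 there were 10 and 5, and without dKO sham 2 there were 6 and 5. The number of higher genes was 21 without WT SNI 1 and 21 without WT SNI 2. Rescaling the libraries after taking out muscle and haemoglobin transcripts gave 24 higher and 8 lower genes. Tyrp1 and the 4 Y-linked genes, 5 in all, kept their calls in every alternative fit in which they were tested. Of the 20 called genes, 3 had both WT sham libraries under 1 FPKM and passed the low-value limit through other libraries. Among all genes tested, 12 passed that limit through the 2 dKO sham libraries alone and 9 through the 2 WT sham libraries alone. Car7 (second highest value 1.0002 FPKM) and Supt4b (1.0003 FPKM) were just inside the limit, and Fign (0.99983 FPKM) and Cnn1 (0.99827 FPKM) were just outside.

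**Figure D2:**
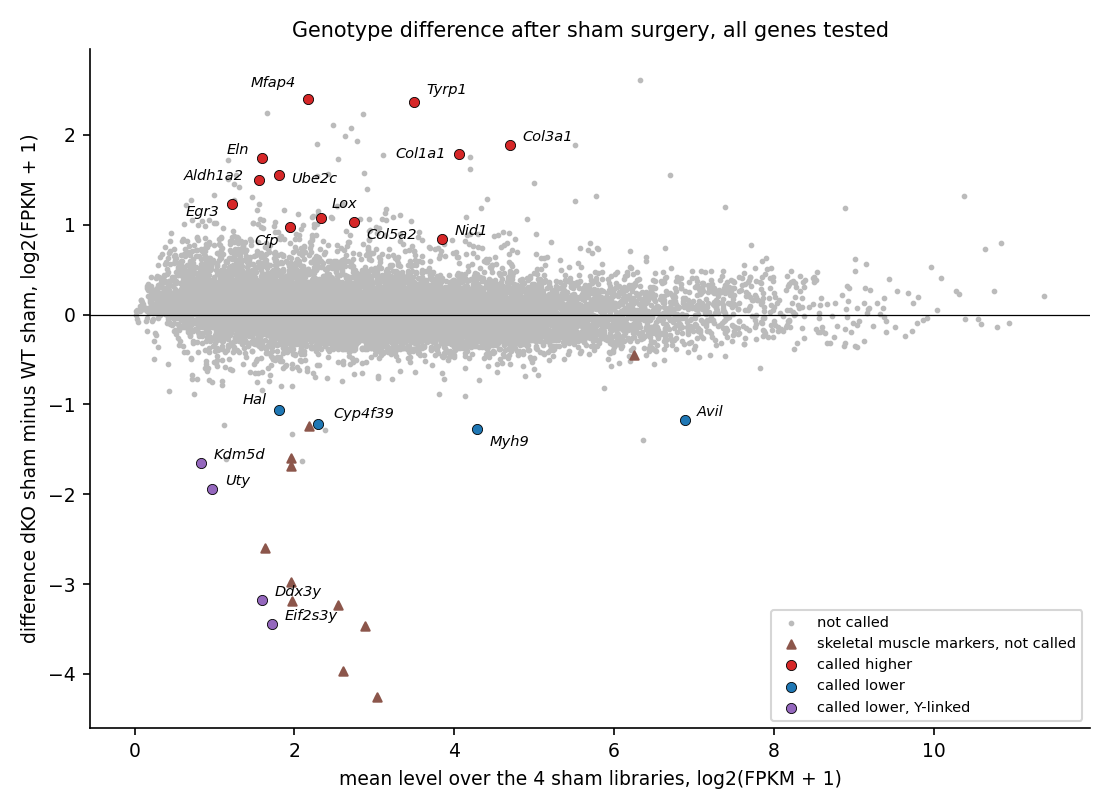
Difference between dKO sham and WT sham against the mean level of the 4 sham libraries, both in log2(FPKM + 1), for the 12884 genes tested. The 12 higher genes (red) are led by Mfap4 at 2.40 and Tyrp1 at 2.36, the Y-linked genes (violet) reach -3.44, and the skeletal muscle markers (triangles) lie as low as -4.26 without being called.

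Fibrillar collagens, the rope-like proteins that give connective tissue its strength, held 3 of the called genes. Col3a1, the chain of type III collagen, measured 13.5 and 11.6 FPKM in WT sham and 43.0 and 55.8 FPKM in dKO sham (1.89 ± 0.18, limma, adjusted p = 0.00344). Col1a1, a chain of type I collagen, measured 8.92 and 7.09 FPKM in WT sham and 23.5 and 38.0 FPKM in dKO sham (1.79 ± 0.22, limma, adjusted p = 0.0144). The lowest dKO sham library was above the highest WT sham library by a wide margin for both genes. Col5a2, a chain of the type V collagen that sets fibril diameter, measured 3.96 and 3.41 FPKM in WT sham and 9.12 and 7.98 FPKM in dKO sham (1.03 ± 0.14, limma, adjusted p = 0.0366). Of the 10 fibrillar collagen genes tested, 3 were called higher and none lower. In 9 of them both dKO sham libraries exceeded both WT sham libraries, and the median difference was 0.67, against 0.04 over all genes. Col1a2, the partner chain of Col1a1, measured 31.7 and 25.4 FPKM in WT sham and 56.4 and 86.3 FPKM in dKO sham and did not pass (limma, adjusted p = 0.0572). Without dKO sham 2, limma gave an adjusted p of 0.0785 for Col1a1 and 0.122 for Col5a2.

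Col3a1 lies on chromosome 1 (45311538 to 45349706, plus strand, GRCm38, GENCODE M21), where Col5a2 lies close by on the minus strand (45374321 to 45503282). The 250 bases before the RefSeq start of Col3a1 (build GRCm38.p6, chr1:45311288-45311537, plus strand) are shown because this gene had the smallest adjusted p of the matrix genes. Capitals mark 2 short motifs chosen after the values were seen, TATAAA and CATGTG, each searched on both strands, and CACATG is the second read on the other strand.
Col3a1: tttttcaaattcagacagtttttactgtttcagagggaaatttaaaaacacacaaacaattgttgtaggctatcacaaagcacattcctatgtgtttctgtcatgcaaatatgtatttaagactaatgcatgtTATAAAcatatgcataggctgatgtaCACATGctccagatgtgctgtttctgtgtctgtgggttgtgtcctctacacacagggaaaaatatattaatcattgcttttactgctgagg
Windows of 300 bases around the start (250 before, 50 after) were at hand for 9885 tested genes, of which 8.74% held TATAAA and 10.3% held CATGTG on either strand. Of the 8 fibrillar collagen genes with a window 2 held TATAAA and 3 held CATGTG. Serum response factor binds the CArG box, and this motif was found in 1.59% of all windows and in 0 of the 8 fibrillar collagen windows. A match describes letters only.

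Among the other collagens no gene was called. Of 17 tested, 13 had both dKO sham libraries above both WT sham libraries and 0 below, with a median of 0.52. Col6a1 and Col6a2 encode chains of the beaded-filament collagen VI that surrounds cells. Col6a1 measured 4.49 and 2.91 FPKM in WT sham and 9.72 and 12.96 FPKM in dKO sham (1.40 ± 0.21, limma, adjusted p = 0.0522). Col6a2 measured 3.49 and 2.51 FPKM against 7.93 and 8.78 FPKM (1.24 ± 0.20, limma, adjusted p = 0.0596). Col4a1, a chain of the basement membrane network, measured 7.86 and 7.29 FPKM in WT sham and 14.03 and 16.4 FPKM in dKO sham (0.91 ± 0.16, limma, adjusted p = 0.0775). None of these 3 pairs of groups overlapped.

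Elastic fibre and crosslinking genes held another 3 called genes. Mfap4, a microfibril protein that binds elastin, measured 0.60 and 1.41 FPKM in WT sham and 7.66 and 11.3 FPKM in dKO sham (2.40 ± 0.28, limma, adjusted p = 0.0102). Eln, elastin, measured 0.54 and 0.77 FPKM in WT sham and 3.59 and 5.63 FPKM in dKO sham (1.74 ± 0.18, limma, adjusted p = 0.00468). These 2 genes were near or below 1 FPKM in WT sham and several-fold above it in dKO sham. Lox, the lysyl oxidase that crosslinks collagen and elastin, measured 2.56 and 2.37 FPKM in WT sham and 5.64 and 7.01 FPKM in dKO sham (1.07 ± 0.14, limma, adjusted p = 0.0189). In 22 of the 30 genes tested both dKO sham libraries were above both WT sham libraries, in 2 they were below, and the median was 0.38. Serpinh1, the chaperone that folds procollagen, measured 19.1 and 17.4 FPKM against 39.0 and 69.3 FPKM and did not pass (1.46 ± 0.23, limma, adjusted p = 0.0555). Without dKO sham 2, limma gave an adjusted p of 0.122 for Mfap4 and 0.128 for Lox. The call of Lox was also lost without WT sham 1 (0.067) and without WT sham 2 (0.143).

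Nid1 was called among the proteoglycans and glycoproteins of the matrix. Nidogen-1 ties laminin to collagen IV in basement membranes, and its gene measured 9.77 and 9.69 FPKM in WT sham and 17.3 and 19.1 FPKM in dKO sham (0.84 ± 0.12, limma, adjusted p = 0.0366). All 35 genes tested in this list had a positive difference, 28 had groups apart in that direction and the median was 0.53. Sfrp4, a secreted Wnt inhibitor, measured 10.8 and 14.8 FPKM in WT sham and 32.9 and 31.6 FPKM in dKO sham (1.28 ± 0.22, limma, adjusted p = 0.0721). Matrix proteases and their inhibitors had a lower median, 0.14 (0.24 without dKO sham 1). Groups were apart upward in 10 (50%) and downward in 1 (5%) of these 20 genes, against 27.8 and 18.3% of all genes. The membrane collagenase Mmp14 measured 7.14 and 7.71 FPKM against 12.2 and 13.5 FPKM (0.72 ± 0.12, limma, adjusted p = 0.0822).

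Fibroblast markers had positive differences beside those of the matrix. Of the 22 tested, 15 had groups apart upward and 0 downward, with a median of 0.53, and Col1a1 was the 1 called. The summed level of the 24 listed markers was 1330 and 1032 FPKM in WT sham and 1463 and 1868 FPKM in dKO sham. Dcn, the fibroblast proteoglycan decorin, measured 199 and 128 FPKM in WT sham and 262 and 289 FPKM in dKO sham (0.78 ± 0.29, limma, adjusted p = 0.392). Clec3b, a secreted fibroblast protein, measured 3.96 and 2.61 FPKM against 8.01 and 16.7 FPKM (1.58 ± 0.28, limma, adjusted p = 0.083). The part of fibroblast content in the matrix results was not tested.

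Aldh1a2, which makes retinoic acid and marks meningeal fibroblasts, measured 0.66 and 0.84 FPKM in WT sham and 3.55 and 4.34 FPKM in dKO sham (1.497 ± 0.211, limma, adjusted p = 0.0366). Its call was lost on leaving out any 1 of the sham libraries, at limma adjusted p values of 0.0943 to 0.296. Of the other meningeal and nerve sheath markers none was called. Cldn1, the tight junction protein of the perineurium, measured 2.89 and 2.78 FPKM in WT sham and 7.30 and 6.79 FPKM in dKO sham (1.07 ± 0.18, limma, adjusted p = 0.0783). The 22 listed markers summed to 118 and 67.2 FPKM in WT sham and 98.2 and 118 FPKM in dKO sham, which overlap. The list's median was 0.29 over 18 genes tested, 0.46 without WT sham 1, 0.18 without WT sham 2, 0.43 without dKO sham 1 and 0.17 without dKO sham 2.

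Tyrp1 had the smallest p of all higher genes. Tyrosinase-related protein 1 works in melanin synthesis, and its transcript measured 3.61 and 4.36 FPKM in WT sham and 25.6 and 23.5 FPKM in dKO sham (2.36 ± 0.13, limma, adjusted p = 6.18e-05). After axotomy the order was the other way round, with 16.9 and 16.7 FPKM in the WT libraries against 9.83 and 8.53 FPKM in the dKO libraries (-0.81 ± 0.13, limma, adjusted p = 0.0102). Tyrp1 was thus higher in every library without Y-linked transcripts (dKO sham, WT SNI) than in every library with them (WT sham, dKO SNI). The part of sex in the Tyrp1 differences was not tested. Most of the listed melanocyte markers were at or near 0. Slc45a2 was at 0 in all 8 libraries, Dct and Tyr reached at most 0.0635 FPKM and Pmel and Mlana at most 0.139 FPKM in the sham libraries. Only 5 of the 15 listed melanocyte genes passed the low-value limit, and of these Mitf, the factor that drives pigment genes, measured 0.81 and 0.82 FPKM in WT sham and 0.59 and 0.75 FPKM in dKO sham. Slc24a5, a melanosome ion exchanger under the low-value limit, measured 0.16 and 0.15 FPKM in WT sham and 0.45 and 0.54 FPKM in dKO sham. Rab27a, which tethers melanosomes and other vesicles, measured 7.34 and 8.69 FPKM against 9.24 and 9.36 FPKM. Both thus had groups apart in the direction of Tyrp1, whereas the groups of Mitf were apart in the opposite direction. For Kit and Gpnmb, also tested in this list, the groups overlapped. Of the 5 tested genes, Tyrp1 included, 2 were therefore apart upward and 1 downward. The 15 genes summed to 24.7 and 29.2 FPKM in WT sham and 52.4 and 46.5 FPKM in dKO sham, with most of the gap in Tyrp1 itself.

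Mitf recognises the letters CATGTG, which occur before the RefSeq start of Tyrp1. GENCODE M21 begins the gene further upstream, at position 80834123 of chromosome 4, so the match lies inside the gene by that annotation. The 30 bases around the match are shown because this gene had the clearest difference (build GRCm38.p6, chr4:80834155-80834184, plus strand, capitals for the motif).
Tyrp1: tggggagggagtCATGTGctgcctagtagt
The match begins 46 bases before the RefSeq start. Of the 12 higher genes 6 had a window and 2 of these, Tyrp1 and Col3a1, held the motif.

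Ube2c was the called gene of the cell cycle. It encodes the ubiquitin carrier of the anaphase-promoting complex and measured 0.99 and 1.09 FPKM in WT sham and 4.29 and 5.79 FPKM in dKO sham (1.56 ± 0.16, limma, adjusted p = 0.00599). In 34 of 46 mitosis genes both dKO sham libraries were above both WT sham libraries, in 1 they were below, and the median was 0.34. The proliferation antigen Mki67 measured 0.73 and 1.23 FPKM against 2.61 and 3.37 FPKM (1.02 ± 0.32, limma, adjusted p = 0.314). The kinetochore gene Spc25 measured 0.40 and 0.48 FPKM against 1.49 and 1.57 FPKM (0.81 ± 0.17, limma, adjusted p = 0.13). Most mitosis genes were below 1 FPKM in WT sham, a range in which this scale understates a change. Of 31 DNA replication genes 13 (41.9%) had groups apart upward and 1 (3.23%) downward, against 27.8 and 18.3% of all genes, with a median of 0.22. Rrm2, a subunit of ribonucleotide reductase, measured 0.57 and 1.38 FPKM against 3.18 and 3.45 FPKM (1.16 ± 0.26, limma, adjusted p = 0.136). Without dKO sham 2 the medians were 0.22 for mitosis and 0.07 for replication, and the adjusted p of Ube2c in limma was 0.0675. Without WT sham 2 the replication median was 0.13.

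Egr3 and Cfp complete the higher genes. Egr3, an immediate early transcription factor, measured 0.69 and 0.37 FPKM in WT sham and 2.97 and 2.22 FPKM in dKO sham (1.23 ± 0.18, limma, adjusted p = 0.0378). Egr1, of the same family, measured 2.31 and 2.51 FPKM in WT sham and 4.44 and 4.31 FPKM in dKO sham (0.66 ± 0.14, limma, adjusted p = 0.134). Ier3 went the other way, at 25.2 and 21.3 FPKM in WT sham and 10.6 and 13.3 FPKM in dKO sham (-0.91 ± 0.18, limma, adjusted p = 0.106). Immediate early genes therefore did not share 1 direction. Groups were apart upward in 11 (40.7%) and downward in 2 (7.41%) of 27, against 27.8 and 18.3% of all genes. Their median of 0.18 was 0.08 without WT sham 1 and 0.27 without WT sham 2. Cfp encodes properdin, which stabilises the complement convertase, and measured 1.54 and 1.95 FPKM in WT sham and 3.92 and 4.91 FPKM in dKO sham (0.98 ± 0.14, limma, adjusted p = 0.0378). The calls of Cfp, Egr3, Nid1, Col5a2 and Hal were each lost under 7 to 9 of the 18 or 19 alternative fits, including those without WT sham 2 and without either dKO sham library.

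For all 12 higher genes WT sham was the lowest of the 4 groups. Both WT sham libraries lay below the other 6 libraries in 12 of 12, and above the other 6 in 3 of the 8 lower genes. The same was so for 18.9 and 12.4% of all genes tested, but these genes were chosen for WT sham lying apart from dKO sham. Among all genes whose sham groups were apart in the given direction, the share was 68% in either direction, and no test was made. Of the 8 lower genes, the 4 Y-linked ones were also present in dKO SNI, so WT sham could not lie above the other 6 there. Of the remaining lower genes, Hal, Avil and Cyp4f39 had WT sham above the other 6, and Myh9 did not. In WT sham, dKO sham, WT SNI and dKO SNI, in that order, Col3a1 averaged 12.5 ± 1.38, 49.4 ± 9.04, 66.2 ± 12.8 and 81.3 ± 5.08 FPKM (mean ± SD, n = 2). Aldh1a2 averaged 0.75 ± 0.13, 3.94 ± 0.56, 3.90 ± 1.11 and 5.05 ± 1.55 FPKM in the same order. In dKO sham Col3a1 stood below the range of the axotomised libraries and Aldh1a2 within it. Cfp and Ube2c had the same order of means as Col3a1, with dKO sham between WT sham and WT SNI and dKO SNI the highest. WT SNI and WT sham share the WT sham libraries with the genotype comparison, so these levels are given side by side and not as a second test.

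**Figure D3:**
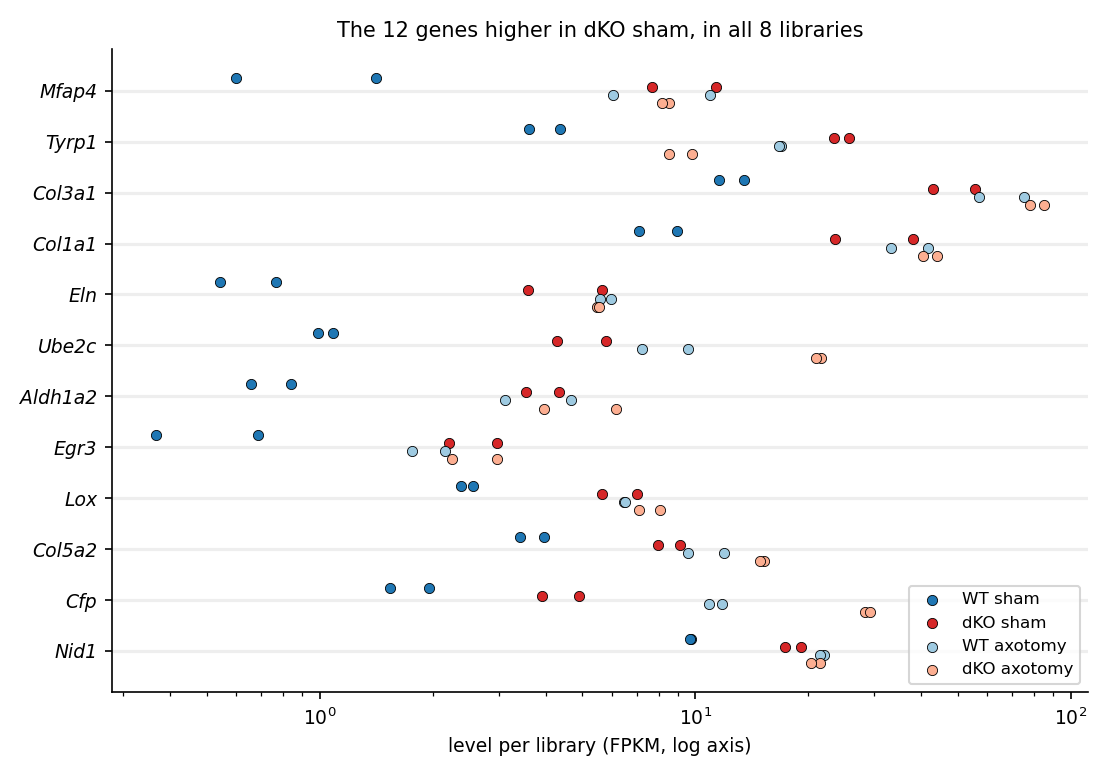
Level per library in FPKM, on a log axis, of the 12 genes higher in dKO sham, in all 4 groups of 2 libraries. Both WT sham points are to the left of the other 6 points for every gene, and Tyrp1 is the gene for which both dKO sham points lie to the right of all other points.

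Lower in dKO sham were a pair of enzymes beside Myh9 and Avil. Cyp4f39, a cytochrome P450 that hydroxylates very long fatty acids, measured 7.05 and 5.99 FPKM in WT sham and 2.36 and 2.10 FPKM in dKO sham (-1.22 ± 0.13, limma, adjusted p = 0.00708). Its call was lost without WT sham 1 (limma, adjusted p = 0.0505) and without dKO sham 2 (0.0863). Hal, histidine ammonia-lyase, measured 4.51 and 3.68 FPKM in WT sham and 1.41 and 1.45 FPKM in dKO sham (-1.06 ± 0.16, limma, adjusted p = 0.038). Both enzymes were also low in all 4 axotomised libraries, where Cyp4f39 measured 1.19 to 2.57 FPKM and Hal 0.83 to 1.26 FPKM. Of all called genes the Y-linked Eif2s3y and Ddx3y had the largest differences. Eif2s3y measured 9.98 and 9.79 FPKM in WT sham and was listed at 0 in both dKO sham libraries, and Ddx3y measured 8.05 and 8.12 FPKM against 0 and 0.0109 FPKM. Uty measured 2.97 and 2.73 FPKM and Kdm5d 2.20 and 2.10 FPKM in WT sham, and both were listed at 0 in dKO sham.

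The rest of the myosin II machinery held no called gene. Of the 6 light chain genes, Myl9, Myl12a and Myl6 had both dKO sham libraries above both WT sham libraries. Myl9, the regulatory light chain that is also abundant in smooth muscle, measured 11.6 and 8.95 FPKM in WT sham and 13.5 and 21.8 FPKM in dKO sham (0.70 ± 0.21, limma, adjusted p = 0.293). The essential chain Myl6 measured 274 and 243 FPKM against 296 and 359 FPKM (0.34 ± 0.19, limma, adjusted p = 0.553). The list's median of 0.33 was 0.50 without dKO sham 1 and 0.11 without dKO sham 2.

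Of the 22 myosin II regulators tested, 7 had groups apart upward and 3 downward, close to the 27.8 and 18.3% of all genes, and the median was 0.05, with a sign that changed to -0.01 without dKO sham 2. Rhoc, a small GTPase that acts upstream of myosin II, measured 37.6 and 32.3 FPKM in WT sham and 43.1 and 52.9 FPKM in dKO sham (0.44 ± 0.15, limma, adjusted p = 0.344). Ppp1r14a, an inhibitor of myosin phosphatase, measured 0.92 and 0.98 FPKM against 2.72 and 3.21 FPKM (1.02 ± 0.43, limma, adjusted p = 0.439). The 41 actin filament genes had a median of 0.01 (-0.05 without dKO sham 2), with groups apart upward in 9 and downward in 6. Actb measured 391 and 438 FPKM in WT sham and 328 and 403 FPKM in dKO sham, and Actg1 measured 508 and 549 FPKM against 416 and 431 FPKM. In the list of 20 YAP and SRF target genes, which respond to actin and contractility, 9 were apart upward and 3 downward, with a median of 0.12. That list's leading member was Acta2, smooth muscle actin, at 2.74 and 2.22 FPKM in WT sham and 4.48 and 6.18 FPKM in dKO sham (0.85 ± 0.21, limma, adjusted p = 0.178). Of its 13 genes with a start window 5 held a CArG box, against 1.59% of all windows. The list was chosen to hold SRF targets, so this count describes the list and not the genotype difference.

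Among the neuronal lists medians were at or below 0, and Avil was the 1 called gene. Of 21 transcription factors of sensory neuron identity, 14 had both dKO sham libraries below both WT sham libraries and 0 above, with a median of -0.22. Runx1, a factor of nociceptors, measured 11.8 and 11.1 FPKM in WT sham and 8.01 and 6.22 FPKM in dKO sham (-0.62 ± 0.18, limma, adjusted p = 0.263). Pou4f1, the factor common to sensory neurons, measured 39.5 and 42.6 FPKM against 35.4 and 33.4 FPKM (-0.25 ± 0.15, limma, adjusted p = 0.576). Without dKO sham 2 the median was -0.14. Of 47 ion channel genes 18 were apart downward and 2 upward, with a median of -0.17 that was -0.29 without WT sham 1 and -0.08 without WT sham 2. Of 32 synaptic vesicle genes 15 were apart downward and 0 upward, with a median of -0.17, and Syt7, a calcium sensor of release, measured 28.6 and 29.6 FPKM against 21.9 and 20.3 FPKM (-0.45 ± 0.15, limma, adjusted p = 0.344). Pan-neuronal genes had a median of -0.11 over 24 genes, which was -0.07 without dKO sham 1, and their summed level overlapped between the groups. The 39 genes of neuron subtypes had a median of -0.04 with a sign that changed between alternatives. Their groups were apart upward in 4 (10.3%) and downward in 12 (30.8%), against 27.8 and 18.3% of all genes. Gfra3, the artemin receptor, was one of those apart upward, at 25.6 and 27.1 FPKM in WT sham and 44.2 and 38.4 FPKM in dKO sham (0.62 ± 0.13, limma, adjusted p = 0.111).

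Genes that sensory neurons switch on after nerve injury were not uniform between replicates. Atf3, the injury transcription factor, measured 2.71 and 7.26 FPKM in WT sham and 10.0 and 9.07 FPKM in dKO sham (0.93 ± 0.30, limma, adjusted p = 0.329). Sprr1a, a growth-related protein, measured 3.34 and 21.9 FPKM against 51.2 and 20.7 FPKM, so the groups overlapped. Galanin, Gal, measured 12.6 and 33.6 FPKM against 45.5 and 25.7 FPKM. In these 3 genes, picked after their values were seen, WT sham 1 was the lowest of the 4 sham libraries. In the axotomised libraries these genes stood far above every sham library, Atf3 at 147 to 178 FPKM. Of the 44 regeneration-associated genes tested, 17 (38.6%) had groups apart upward and 5 (11.4%) downward, against 27.8 and 18.3% of all genes, and none was called. Their median of 0.20 was 0.08 without WT sham 1 and 0.31 without WT sham 2. The neuronal stathmin Stmn4 measured 7.42 and 8.28 FPKM in WT sham and 13.4 and 13.5 FPKM in dKO sham (0.71 ± 0.13, limma, adjusted p = 0.0822).

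Glial and vascular lists had positive medians and no called gene. Of 18 satellite glia markers 12 were apart upward and 1 downward, with a median of 0.32 (0.21 without dKO sham 1). Slc1a3, a glutamate transporter, measured 2.62 and 2.59 FPKM in WT sham and 4.68 and 4.74 FPKM in dKO sham (0.66 ± 0.13, limma, adjusted p = 0.111). Apoe, the lipid carrier, measured 1505 and 1272 FPKM against 2591 and 2243 FPKM (0.80 ± 0.24, limma, adjusted p = 0.289). Schwann cell and myelin markers had a median of 0.41 over 22 genes, with 10 apart upward and 2 downward. That median was 0.65 without dKO sham 1, 0.15 without dKO sham 2 and 0.25 without WT sham 2. Ugt8a, which makes the myelin lipid galactocerebroside, measured 22.7 and 16.2 FPKM against 31.7 and 38.8 FPKM (0.84 ± 0.17, limma, adjusted p = 0.111). Of 10 pericyte and smooth muscle markers 7 (70%) were apart upward and 0 downward, with a median of 0.28. Of 21 endothelial markers 10 (47.6%) were apart upward and 0 downward, with a median of 0.19. Over all genes the shares were 27.8% upward and 18.3% downward. The endothelial median was 0.12 without WT sham 1, 0.30 without dKO sham 1 and 0.09 without dKO sham 2. The endothelial sialomucin Emcn measured 5.70 and 5.63 FPKM in WT sham and 8.49 and 10.4 FPKM in dKO sham (0.64 ± 0.20, limma, adjusted p = 0.319).

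Blood and immune lists held no called gene. Of 17 erythrocyte genes 15 were apart upward and 1 downward, with a median of 1.19, which was 0.58 without dKO sham 2. Their summed level was 1425 and 1348 FPKM in WT sham and 2108 and 5340 FPKM in dKO sham, so most of the excess stood in 1 library. Slc4a1, the red cell anion exchanger, measured 1.42 and 3.19 FPKM against 9.51 and 16.2 FPKM (2.08 ± 0.49, limma, adjusted p = 0.154). Of 28 macrophage markers 16 were apart upward and 1 downward, with a median of 0.42 (0.17 without dKO sham 2). The list summed to 228 and 232 FPKM in WT sham and 269 and 424 FPKM in dKO sham. The complement gene C1qb measured 13.8 and 10.9 FPKM against 19.0 and 26.2 FPKM (0.82 ± 0.19, limma, adjusted p = 0.14). The class II gene H2-Ab1, which presents antigen, measured 14.7 and 16.7 FPKM against 32.0 and 27.3 FPKM (0.88 ± 0.16, limma, adjusted p = 0.0822). Cd79a, part of the B cell receptor, measured 0.48 and 0.57 FPKM against 2.34 and 3.08 FPKM (1.28 ± 0.24, limma, adjusted p = 0.103). The fat cell gene Cfd measured 0.18 and 0.77 FPKM against 3.35 and 9.74 FPKM (2.24 ± 0.36, limma, adjusted p = 0.0624). The part of blood, fat and immune cell content in the matrix and cell cycle results was not tested.

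Ribosomal and cholesterol genes differed in sign. All 53 cytosolic ribosomal protein genes had a positive difference, 26 of them with groups apart, and the median of 0.35 was 0.16 without WT sham 2 and 0.15 without dKO sham 2. Rps18 measured 12.1 and 79.1 FPKM in WT sham and 165 and 234 FPKM in dKO sham (2.61 ± 0.64, limma, adjusted p = 0.178), and the WT sham libraries differed several-fold between themselves. Ribosomal protein genes have near-identical copies in the genome, and how such reads were assigned is not given in the sources used here. Of 23 cholesterol synthesis genes 12 were apart downward and 1 upward, with a median of -0.18, which was -0.09 without dKO sham 1.

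**Figure D4:**
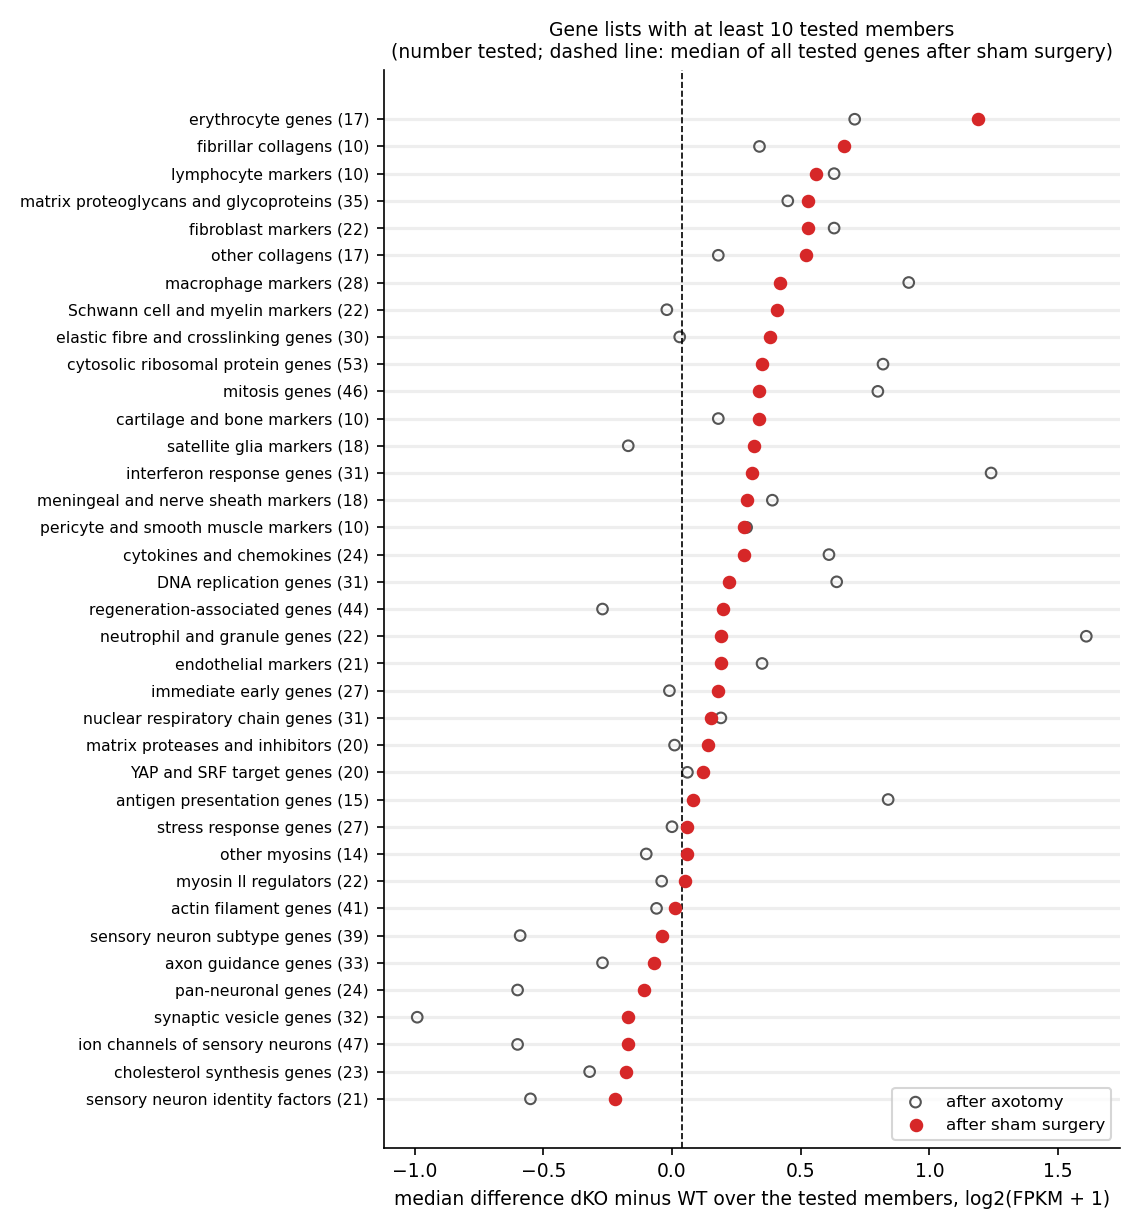
Median difference between dKO and WT in log2(FPKM + 1) for each gene list with at least 10 tested members other than skeletal muscle, after sham surgery (filled) and after axotomy (open), with the number of genes tested in parentheses and a dashed line at the median of all genes after sham surgery. Erythrocyte genes (1.19) and fibrillar collagens (0.67) have the highest sham medians and sensory neuron identity factors (-0.22) the lowest.

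Of 18 listed spinal cord markers only 6 were tested, of which 4 were apart upward and 2 downward. Gfap and Aqp4, apart upward, are also listed as satellite glia markers, and Pdgfra, apart upward, as a fibroblast marker. Mog, Opalin, Olig2, Mnx1 and Slc6a5, also listed for spinal cord, were at 0 in all 4 sham libraries. Hoxd10, a homeobox gene of caudal spinal levels, measured 0.51 and 0.35 FPKM in WT sham and 6.13 and 1.15 FPKM in dKO sham (1.46 ± 0.43, limma, adjusted p = 0.289), so that dKO sham 1 stood apart. The skeletal muscle markers had the lowest median of any list, -2.97 over 11 genes tested, none of them called. That median was -0.83 without WT sham 2 and -5.28 without WT sham 1. Ckm, muscle creatine kinase, measured 3.17 and 138 FPKM in WT sham and 0.24 and 0.91 FPKM in dKO sham. Without WT sham 2, which held by far the most muscle transcript, the matrix differences were of similar size. They were 1.79 for Col3a1, 1.64 for Col1a1, 2.69 for Mfap4, 1.03 for Lox and 0.94 for Col5a2. With only WT sham 1 left in its group, the calls of Col1a1, Lox and Col5a2 were lost.

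The same genotypes were set side by side after axotomy, in 4 libraries that the sham comparison does not share. There 1374 genes were higher in dKO (10.7%) and 1732 lower (13.4%), by limma at an adjusted p of 0.05. Those counts rested on few libraries: they were 9 and 1 without WT SNI 1 and 9 and 2 without dKO SNI 2. Over the 12884 genes the genotype differences of the 2 surgeries had a Pearson r of 0.487 (Spearman's coefficient 0.594), a description across genes, which are not independent and share their 4 libraries on each axis. Of the 12 genes higher in dKO sham, 9 kept a positive difference after axotomy and 3 (Ube2c, Cfp and Col5a2) were called higher there. Col5a2 measured 0.46 ± 0.14 (limma, adjusted p = 0.0435), Cfp 1.27 ± 0.14 (0.00688) and Ube2c 1.26 ± 0.16 (0.00929). Of the 8 lower genes, Avil and Cyp4f39 were called lower after axotomy as well. Mfap4, Eln and Nid1 lay between -0.06 and 0.03 there.

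The test of the difference between the surgeries called 7 genes (0.0543%), among them Tyrp1 at -3.17 ± 0.19 (limma, adjusted p = 5.93e-05) and the 4 Y-linked genes. It called none of the matrix genes: limma gave an adjusted p of 0.143 for Col3a1, 0.065 for Eln and 0.144 for Mfap4. Their genotype differences are therefore not shown to depend on the surgery. The count of 7 was 20 without WT sham 1, 15 without dKO SNI 1 and 11 without WT SNI 2. With 2 libraries in each group an exact permutation test reaches at best p = 0.333, and none was run on single genes.

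**Figure D5:**
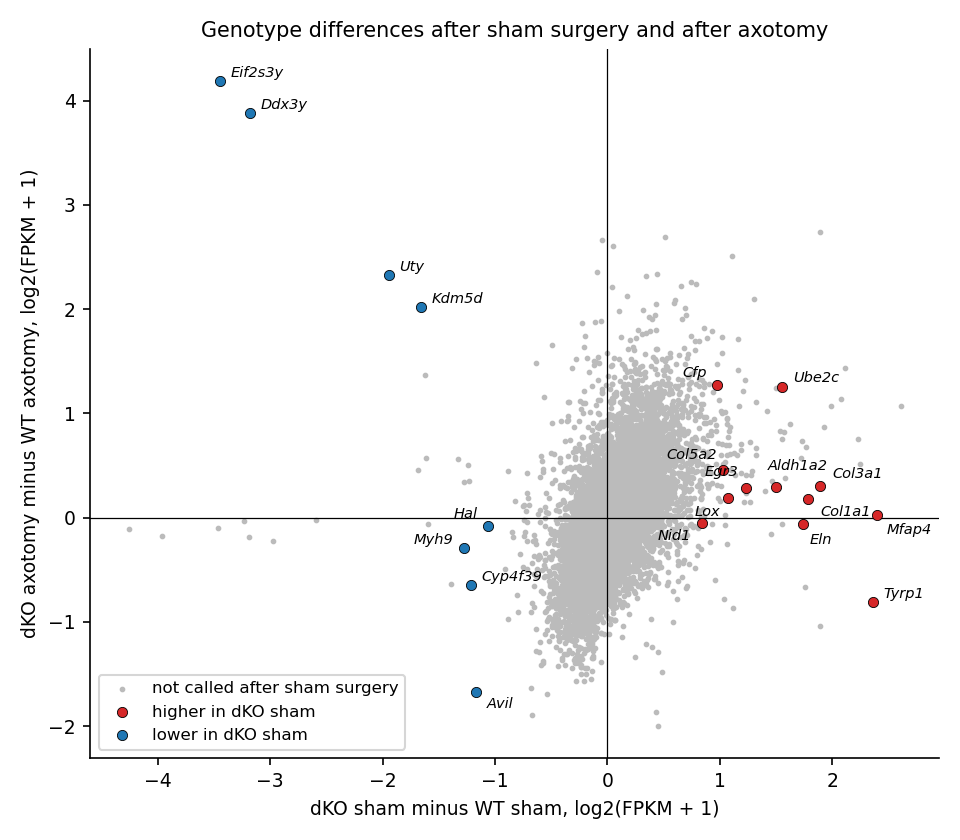
Genotype difference after axotomy against that after sham surgery, both in log2(FPKM + 1), for the 12884 genes, with the 20 genes called after sham surgery named. The matrix genes lie between -0.06 (Eln) and 0.46 (Col5a2) on the vertical axis, Ube2c and Cfp lie above 1 there, and Tyrp1 and the Y-linked genes lie in the quadrants of opposite sign.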

How the data were processed

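Per the labels' protocols, ganglion RNA was purified with an RNeasy kit and sequenced in pairs from TruSeq libraries. Whether strand was kept is not given in the sources used here, so overlapping antisense genes cannot be told apart. Per the submitters' processing notes, HISAT2 2.0.4, StringTie 1.3.0 and edgeR were used, with the builds GRCm38.p4 and mm10. The authors deposited FPKM for 21878 gene symbols in 8 columns, each matched to its sample by label. Each value is relative to its library's total, so abundant transcripts lower all others. Low values were divided by the lowest value of the same gene, and 45.8% of 7450 ratios came within 0.1 of an integer, against 20% for an even spread. The ratios were taken between libraries without correction for depth, so whole reads need not give integers there. This check therefore cannot decide whether reads could be recovered. A count test was not used because the table holds FPKM and no counts. Of the symbols 27 look like dates and 2 are duplicated, and these are not interpreted.

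The low-value limit was 1 FPKM in 2 libraries. The test was limma 3.58.1 (R 4.3.3) on log2(FPKM + 1), a scale that understates changes of low genes. All 8 libraries entered with a mean for each group (4 residual degrees of freedom), a mean-variance trend, two-sided tests and Benjamini-Hochberg adjustment at 0.05, and the fit was tested on simulated data. The genes and lists were chosen with earlier results of these data known. Of 1175 entries in 46 gene lists 1161 were found. Lists are described by counts and medians, not tested. Named genes were the targeted genes, Avil, all called genes, the 3 members of each described list with the smallest p, and muscle, haemoglobin and Y-linked genes. A few genes that this rule picks are not reported here. Others (Tubb3, Fabp7, Dcn, Mki67, Pou4f1, Actb, Actg1, Serpinh1, Atf3, Sprr1a, Gal and the melanocyte markers other than Tyrp1, Rab27a and Mitf) were chosen after their values were seen. Gene positions come from GENCODE M21 and start windows from RefSeq, both on GRCm38. Alternatives changed the pseudocount, low-value limit, scaling, moderation, replicate block and libraries.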

Additional observations from a re-analysis of the deposited data

Results flagged for a closer look

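In 7 genes the genotype difference itself differed between axotomy and sham surgery, by limma over all genes tested. The values are the difference after axotomy minus the difference after sham surgery on the log2(FPKM + 1) scale. Eif2s3y was at 7.63 ± 0.17 (adjusted p = 3.79e-08), Ddx3y at 7.06 ± 0.17 (3.81e-08), Uty at 4.27 ± 0.19 (5.77e-06) and Kdm5d at 3.68 ± 0.20 (2.88e-05). These 4 Y-linked genes were present in WT sham and dKO SNI and at or near 0 in dKO sham and WT SNI. Tyrp1 was at -3.17 ± 0.19 (5.93e-05), higher in dKO than in WT after sham surgery and lower after axotomy in 4 of 4 libraries. Every library without Y-linked transcripts held more Tyrp1 than every library with them. Asprv1, a skin protease, was at 1.40 ± 0.18 (0.0408): it measured 1.51 and 1.38 FPKM in WT sham, 1.17 and 1.27 in dKO sham, 2.36 and 2.70 in WT SNI and 7.22 and 7.74 in dKO SNI. The predicted gene Gm38495 was at 2.55 ± 0.33 (0.0408) and was above 0.6 FPKM in no library other than the 2 of dKO SNI, at 5.49 and 8.02 FPKM.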

How the results depend on the processing

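The number of genes higher in dKO sham, 12 as reported, was 47 with a pseudocount of 0.1, 22 with 0.5, 1 with no limit on low values, 19 when genes averaging under 5 FPKM were left out, 24 with totals that leave out muscle and haemoglobin genes, 23 with only the 4 sham libraries in the fit and 39 with a replicate block. It ranged from 6 to 21 on leaving out 1 library. The number of lower genes, 8, was 5 with no limit on low values and 4 without genes averaging under 5 FPKM, ranged from 5 to 22 on leaving out 1 library, and was also 8 with the replicate block. All 20 calls were kept with the replicate block, with either pseudocount and with median centring, and 6 of 20 with no limit on low values, where more genes were tested. The replicate numbers were not taken to pair the libraries. Same-numbered libraries deviated from their group means with a correlation of 0.05 between the sham groups and 0.25 between the axotomised groups. Between a sham and an axotomised group it ranged from -0.19 to 0.09. After axotomy the counts of 1374 and 1732 were 884 and 1008 with no limit on low values, and ranged from 9 to 1388 and from 1 to 1795 on leaving out 1 library. The count of 7 genes that differ between the surgeries was 12 with the replicate block and ranged from 5 to 20. Of the 46 list medians 36 kept their sign in all alternatives run, and those of the actin filament genes, myosin II regulators and YAP and SRF targets did not. Of 118 genes followed under all alternatives only Tubb3 changed sign: on leaving out 1 library its difference ranged from -0.107 to 0.012 (without dKO sham 1). Where no cause is given, it was not tested. The depth behind each value is unknown and 2 libraries a group limit the precision.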
